A study of Mus musculus with 6 samples.

Results

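The transcripts described here encode the machinery that carries the leukemia inhibitory factor (LIF) signal in mouse embryonic stem cells: the receptor subunits Lifr, Il6st and Osmr, the JAK kinases Jak1, Jak2 and Tyk2, the transcription factors Stat3 and Stat5b, and the phosphatase gene Ptpn11. They are the rows of the table with these 9 symbols, of 18518 gene symbols in all. The libraries were 3 from BACH1-KO and 3 from WT cells of E14Tg2A, an established mouse embryonic stem cell line. Both genotypes were kept for 2 days in serum medium (10% fetal bovine serum) with 200 units/ml of mouse LIF, so no library came from cells without LIF. In the BACH1-KO cells Bach1 had been targeted with a CRISPR/Cas9 plasmid, with puromycin selection and sorting of single-cell clones after 7 days. How many clones the 3 BACH1-KO libraries represent, and whether libraries of a genotype are separate cultures, is not given in the sources used here, so each p-value refers to the spread between libraries, and part or all of that spread may be technical. Some sample titles of both genotypes share their last characters, which may mark a shared date or batch. Their meaning is not stated, and the table columns could not be matched to the titles. The tests are therefore unpaired, and a batch shared across genotypes was not taken into account.

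LIF binds the LIF receptor subunit, which then pairs with gp130, the product of Il6st and the shared subunit of the interleukin-6 cytokine family. JAK kinases bound to the receptor tails phosphorylate both tails and STAT3, which enters the nucleus and keeps mouse embryonic stem cells self-renewing. SHP2, encoded by Ptpn11, docks on the same receptors and feeds the RAS to ERK route, which favours differentiation. The title of the series places BACH1 and STAT3 at the LIF receptor, and the comparison of BACH1-KO with WT asks which transcripts of this machinery depend on the genotype.

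The promoter windows of the 2 members with the largest differences, Lifr and Stat3, are shown because the title of the series names both. Each is the 250 bases before a RefSeq gene start in GRCm38.p6, the same build as mm10, 5′ to 3′ on the strand of the gene. Capitals mark a match to 1 of 3 motifs that were searched on both strands.
Lifr, chr15:7129322-7129571, plus strand: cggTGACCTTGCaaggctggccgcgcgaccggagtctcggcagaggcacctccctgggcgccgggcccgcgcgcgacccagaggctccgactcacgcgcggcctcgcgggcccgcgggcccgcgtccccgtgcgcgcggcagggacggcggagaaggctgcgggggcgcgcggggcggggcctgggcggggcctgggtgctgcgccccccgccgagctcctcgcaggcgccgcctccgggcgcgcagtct
Stat3, chr11:100939541-100939790, minus strand: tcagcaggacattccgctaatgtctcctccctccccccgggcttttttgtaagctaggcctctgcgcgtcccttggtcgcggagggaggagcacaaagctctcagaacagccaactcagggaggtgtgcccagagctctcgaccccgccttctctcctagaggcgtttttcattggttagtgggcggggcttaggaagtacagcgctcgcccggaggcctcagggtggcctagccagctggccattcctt
The motifs were the STAT site TTCNNNGAA, the AP-1-like site TGACTCA and the antioxidant response core TGACNNNGC, of which the last 2 share the letters TGAC. The Lifr window held 1 match, TGACCTTGC at 247 to 239 bases before the start, and the Stat3 window held none. Of 32851 promoter windows of this length, 7.02% held the STAT site, 4.46% the AP-1-like site and 10.2% the antioxidant response core. All 9 members had a RefSeq window, 11 windows in total with the second starts of Lifr and Stat5b, and the other 10 held no match. Both Lifr windows lie inside the gene span given below (7090614 to 7197489). The bases before the start of that span, which is used for distances to neighbours, were not searched. The G+C content was 82.4% in the printed Lifr window and 60.8% in that of Stat3, against a median of 52.4% over all windows. A match describes letters in a window and does not show a bound site.

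Values are FPKM, fragments scaled to transcript length and to the mapped fragments of the library, as the authors deposited them. Summed FPKM over all symbols lay between 762745 and 766086 in BACH1-KO and between 785800 and 805118 in WT libraries, and the number of genes above 0 between 17276 and 17455 in BACH1-KO and between 16047 and 16159 in WT. The depth in reads is unknown. All 10 embryonic stem cell markers were expressed in both genotypes. They summed to 6829 to 7081 FPKM in BACH1-KO and 10646 to 11422 FPKM in WT. Dppa5a made up most of this sum, averaging 4284 FPKM in BACH1-KO and 6606 FPKM in WT. By the test used below 9 markers were lower in BACH1-KO, with means between 12.6% (Lin28a) and 78.6% (Tdgf1) below WT. The other 1, Nanog, was called higher by a small margin (log2 fold change 0.07, limma adjusted p = 0.0419). For these and the other marker lists here, the shares over all tested genes were 39.7% lower, 37.3% higher and 77% called. Leaving out each of the 6 libraries in turn ended the Nanog call every time (adjusted p = 0.0532 to 0.127), as did limma without the variance trend (adjusted p = 0.129). The 12 hepatocyte markers summed to 813 to 839 FPKM in BACH1-KO (0.106% to 0.110% of all FPKM), against 1.31 to 6.27 FPKM in WT. Apoh and Cyp3a11 were listed at 0 in all WT libraries. All 12 averaged under 1 FPKM in WT, so they passed the filter, a mean of 1 FPKM over the 6 libraries, only through BACH1-KO. A call could only be higher, so the 12 higher calls are no evidence of a direction. The part of these markers in the results below was not tested. Of the 10 fibroblast feeder markers 9 were in the table and 2, Thy1 and Pdgfrb, were high enough to test, and both fell; the sum of the list was 13.2 to 13.7 FPKM in BACH1-KO and 23.6 to 24.8 FPKM in WT. Most of that sum was Thy1, at 10.2 FPKM in BACH1-KO and 18.8 FPKM in WT. The markers too low to test went both ways. Means of Col1a1 and Pdgfra were 0.264 and 0.440 FPKM in BACH1-KO, below 0.649 and 0.745 FPKM in WT. Means of Dcn, Col1a2 and Postn were 0.764, 0.177 and 0.0605 FPKM in BACH1-KO, above 0.0664, 0.0704 and 0.0215 FPKM in WT. The collagen gene Col3a1 and Lum were listed at 0 in all WT libraries and averaged 0.102 and 0.0568 FPKM in BACH1-KO.

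Bach1 itself was at 10.5, 10.4 and 10.4 FPKM in BACH1-KO and at 7.97, 8.39 and 8.47 FPKM in WT libraries, so the transcript was higher in every BACH1-KO library. Its log2 fold change of 0.30 (SE 0.05) had a limma adjusted p of 5.15e-04. A transcript level does not show whether the coding sequence was edited.

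Of the 9 members, 6 fell in BACH1-KO, 0 rose, 2 did not pass the test and 1, Osmr, was too low to test. The test was limma on log2(FPKM + 1) over the 12187 genes whose 6 libraries averaged 1 FPKM or more, with Benjamini-Hochberg adjustment over all of them and a threshold of 0.05. Across all tested genes 39.7% fell, 37.3% rose and 77% changed in either direction, so 6 changed members of 8 tested is close to the share of all genes. At an unadjusted p under 0.05 the count of members that rose was also 0. The median log2 fold change of the 8 tested members was -0.41, beside -0.01 over all tested genes. The members differed in size of change: Lifr and Stat3 lost 65.6% and 65.5% of the WT level, while the other 4 that fell lost between 22.0% and 34.1% of the WT level. Genes that fell to at most 50% of WT made up 6.05% of those tested. The 6 members that fell had no overlap between the libraries of the genotypes, as had 79.3% of tested genes. When tested against a fold change of 1.5 instead of no change, Lifr and Stat3 were called and the other 4 were not. In bulk libraries, fewer cells that express a gene and less of its RNA per cell cannot be told apart.

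**Figure D1:**
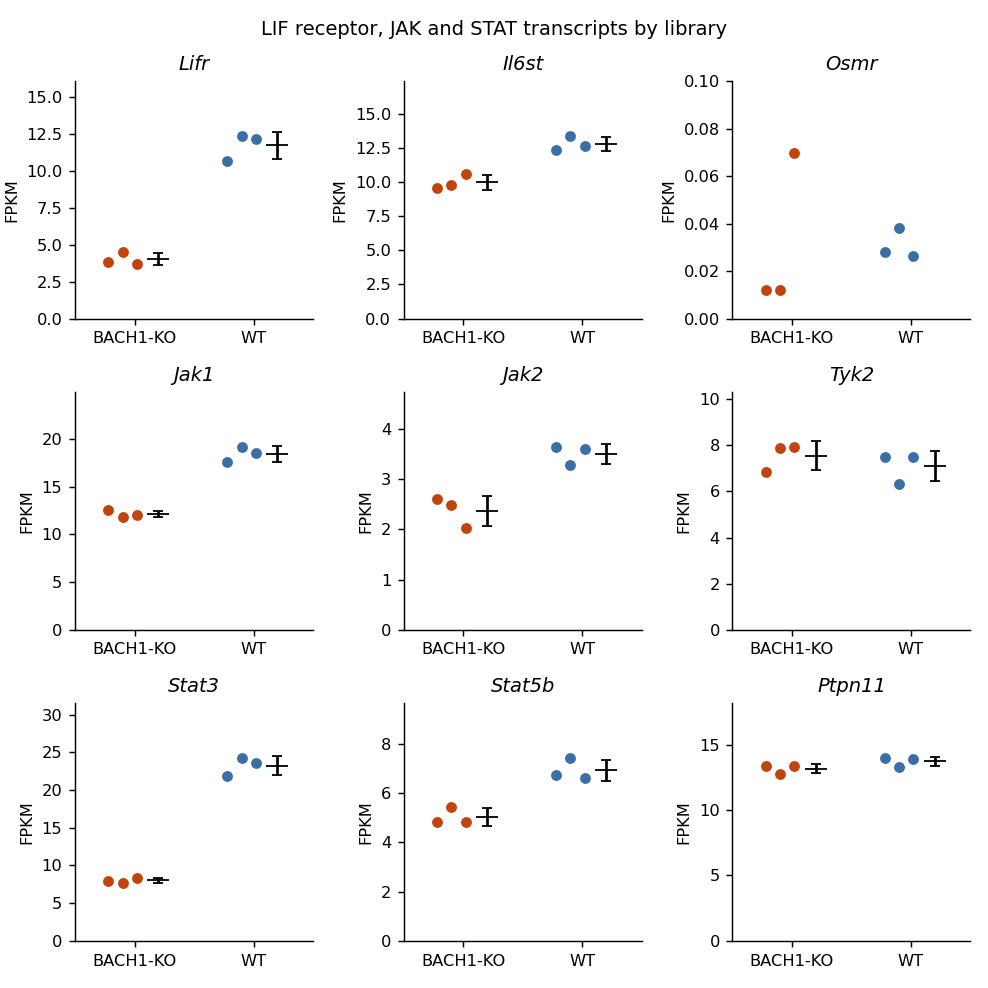
FPKM of the 9 members in each library, with BACH1-KO libraries (orange) left of WT libraries (blue); bars give the mean ± SD of 3 libraries, except for Osmr, where no mean is drawn, and each panel has its own axis from 0. Lifr and Stat3 show the widest gaps, with 3.72 to 4.51 FPKM of Lifr in BACH1-KO against 10.6 to 12.4 FPKM in WT, while the libraries of Tyk2 and Ptpn11 overlap.

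Lifr, the subunit that gives the receptor its LIF binding (chromosome 15, 7090614 to 7197489, plus strand, mm10), was at 3.85, 4.51 and 3.72 FPKM in BACH1-KO and at 10.6, 12.4 and 12.1 FPKM in WT libraries. The highest BACH1-KO library was well under the lowest WT library. The mean was 65.6% lower in BACH1-KO, with a log2 fold change of -1.34 (SE 0.08, limma adjusted p = 2.01e-06). A log2 fold change this low or lower was found in 1.52% of tested genes.

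Il6st (chromosome 13, 112464070 to 112510086, plus strand) encodes gp130 and fell, with a log2 fold change nearer to 0. It was at 9.55, 9.77 and 10.6 FPKM in BACH1-KO and at 12.3, 13.4 and 12.6 FPKM in WT libraries, without overlap. The mean was 22.0% lower in BACH1-KO and the log2 fold change -0.33 (SE 0.06, limma adjusted p = 7.62e-04); 27.3% of tested genes had a log2 fold change as low or lower.

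The ratio of the receptor pair did not overlap between the genotypes. Per unit of transcript length, Lifr stood at 0.404, 0.461 and 0.351 times the level of Il6st in the BACH1-KO libraries, and at 0.862, 0.924 and 0.959 times in the WT libraries. The ratio of every BACH1-KO library was below that of every WT library. On the log2(FPKM + 1) scale the ratio was -1.13 ± 0.16 in BACH1-KO and -0.12 ± 0.07 in WT (SD, n = 3 each), a difference of -1.01 (exact two-sided permutation p = 0.1, the smallest that 3 against 3 libraries allow, and 0.125 after Benjamini-Hochberg adjustment over the 5 member ratios compared).

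Osmr (chromosome 15, 6813577 to 6874969, minus strand) encodes the oncostatin M receptor subunit, which also pairs with gp130 and is known from fibroblasts and liver. It was at 0.0120, 0.0119 and 0.0696 FPKM in BACH1-KO and at 0.0281, 0.0383 and 0.0265 FPKM in WT libraries. These values are at the bottom of the table, the genotypes overlap, and no fold change is given. With Osmr near 0 in all libraries, the log2 ratio of Lifr to Osmr repeated that of Lifr, at 2.28 ± 0.15 in BACH1-KO and 3.62 ± 0.10 in WT (SD, n = 3 each; difference -1.34, exact permutation p = 0.1, adjusted 0.125).

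Among the kinases, Jak1 was the most abundant and had the lowest log2 fold change of the 3 JAK members by the test above. The means of Jak1 and Jak2 were 34.1% and 32.5% lower in BACH1-KO. After quantile normalization the log2 fold change of Jak2 was the lower, at -0.61 against -0.56 for Jak1. Jak1 (chromosome 4, 101152367 to 101265282, minus strand), the JAK that gp130 signalling chiefly needs, was at 12.5, 11.8 and 12.1 FPKM in BACH1-KO and at 17.6, 19.2 and 18.5 FPKM in WT libraries. All BACH1-KO libraries were below all WT libraries, with a log2 fold change of -0.56 (SE 0.05, limma adjusted p = 1.37e-05).

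Jak2 (chromosome 19, 29251828 to 29313080, plus strand), a second kinase of the gp130 complex, was much lower in level. It was at 2.60, 2.48 and 2.02 FPKM in BACH1-KO and at 3.64, 3.28 and 3.60 FPKM in WT libraries, again without overlap (log2 fold change -0.42, SE 0.09, limma adjusted p = 0.00213). The log2 ratio of Jak1 to Jak2 was 1.97 ± 0.13 in BACH1-KO and 2.11 ± 0.12 in WT (SD, n = 3 each), a difference of -0.14 within the overlap of the libraries (exact permutation p = 0.3, adjusted p = 0.3). Without the added 1, Jak1 stood at 4.82, 4.77 and 5.99 times the level of Jak2 in BACH1-KO libraries. In WT libraries it stood at 4.83, 5.84 and 5.15 times, so the means of 5.19 in BACH1-KO and 5.27 in WT were close.

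Tyk2 (chromosome 9, 21104068 to 21131243, minus strand), the kinase best known from interferon and interleukin-12 receptors, did not pass the test. It was at 6.84, 7.89 and 7.92 FPKM in BACH1-KO and at 7.50, 6.34 and 7.47 FPKM in WT libraries, which overlap. The log2 fold change was 0.08 with a 95% confidence interval of -0.11 to 0.27 (limma adjusted p = 0.400), and its sign turned to -0.0092 after quantile normalization.

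Stat3 (chromosome 11, 100885098 to 100939540, minus strand) had the lowest log2 fold change of the members. It was at 7.93, 7.72 and 8.40 FPKM in BACH1-KO and at 21.9, 24.2 and 23.6 FPKM in WT libraries. No BACH1-KO library came near the WT range. The mean was 65.5% lower in BACH1-KO, with a log2 fold change of -1.43 (SE 0.05, limma adjusted p = 1.97e-07), and 1.20% of tested genes had a log2 fold change as low or lower.

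Stat5b (chromosome 11, 100780731 to 100850724, minus strand), the STAT best known from growth hormone signalling, was at 4.81, 5.43 and 4.84 FPKM in BACH1-KO and at 6.74, 7.41 and 6.60 FPKM in WT libraries. The genotypes did not overlap, with a log2 fold change of -0.39 (SE 0.07, limma adjusted p = 9.14e-04). Stat5b and its neighbour Stat5a are close copies, and how reads shared by both were assigned is not given in the sources used here, so the level of each is uncertain.

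The ratio of the STAT members also separated the genotypes. Stat3 was at 1.65, 1.42 and 1.74 times the level of Stat5b in BACH1-KO and at 3.25, 3.27 and 3.58 times in WT libraries. The log2 ratio was 0.58 ± 0.13 in BACH1-KO and 1.62 ± 0.07 in WT (SD, n = 3 each), a difference of -1.03 (exact permutation p = 0.1, adjusted 0.125). Against Jak1, the kinase above it in the pathway, Stat3 was at 0.633, 0.653 and 0.695 times in BACH1-KO and at 1.24, 1.27 and 1.28 times in WT libraries. The log2 ratio of Stat3 to Jak1 was -0.54 ± 0.06 in BACH1-KO and 0.32 ± 0.02 in WT (SD, n = 3 each; difference -0.86, exact permutation p = 0.1, adjusted 0.125), so Stat3 was the lower of the pair in all BACH1-KO libraries and the higher in all WT libraries.

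Ptpn11 (chromosome 5, 121130533 to 121191397, minus strand), which encodes the phosphatase SHP2, did not pass the test. It was at 13.3, 12.8 and 13.4 FPKM in BACH1-KO and at 14.0, 13.3 and 13.9 FPKM in WT libraries, and the genotypes overlapped. The log2 fold change was -0.06 with a 95% confidence interval of -0.16 to 0.05 (limma adjusted p = 0.279). The lower end of this interval lies above the log2 fold change of each of the 6 members that fell.

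**Figure D2:**
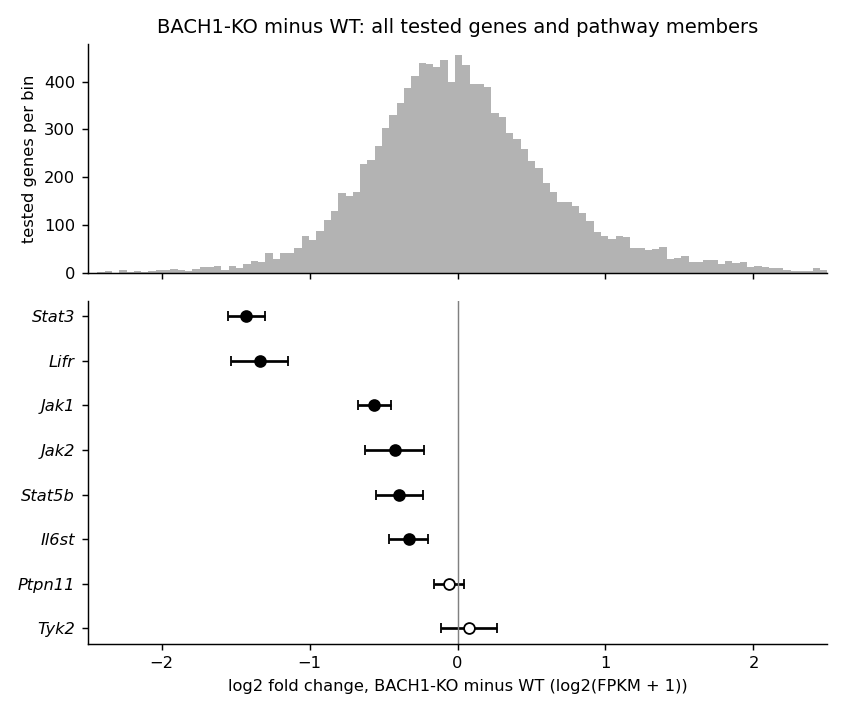
The upper panel gives the number of tested genes per bin of log2 fold change on the log2(FPKM + 1) scale (BACH1-KO minus WT), without the 111 genes beyond 2.5 in either direction; the lower panel gives the 8 tested members with 95% confidence intervals, filled where the limma adjusted p was under 0.05 and open where it was not. Stat3 at -1.43 and Lifr at -1.34 lie in the lower tail of all genes, the other 4 that fell lie between -0.56 and -0.33, and the intervals of Ptpn11 and Tyk2 include 0.

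The order of the members by level differed between the genotypes. In BACH1-KO the order was Ptpn11, Jak1, Il6st, Stat3, Tyk2, Stat5b, Lifr, Jak2 and Osmr, and Stat3 and Tyk2 were the only neighbours in this order whose libraries overlapped. In WT it was Stat3, Jak1, Ptpn11, Il6st, Lifr, Tyk2, Stat5b, Jak2 and Osmr, where Ptpn11 and Il6st, Il6st and Lifr, and Tyk2 and Stat5b overlapped. Among the tested genes Stat3 stood at percentile 40.5 by mean level in BACH1-KO and at 67.6 in WT, and Lifr at percentile 24.2 in BACH1-KO and 51.1 in WT. Within WT, the second library was the highest for 5 of the 8 tested members (Lifr, Il6st, Jak1, Stat3 and Stat5b) and the lowest for the other 3.

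The summed FPKM of STAT genes was lower in BACH1-KO and differed in composition, as described here without a test because the sums were chosen after the values were seen. The 6 STAT genes taken here (Stat2, Stat3, Stat4, Stat5a, Stat5b and Stat6) summed to 50.8, 50.8 and 51.9 FPKM in BACH1-KO and to 65.0, 68.1 and 67.3 FPKM in WT libraries. Stat3 made up 15.6%, 15.2% and 16.2% of this sum in BACH1-KO, against 33.6%, 35.6% and 35.1% in WT, where it was the largest share. In BACH1-KO Stat6 held the largest share, 33.7% ± 0.32, against 22.8% ± 0.76 in WT, and Stat4 held 20.2% ± 0.38 in BACH1-KO and 7.80% ± 0.75 in WT (SD, n = 3 each). The share of Stat5b was 9.83% ± 0.74 in BACH1-KO and 10.3% ± 0.54 in WT.

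The 4 JAK genes summed to 24.6, 26.1 and 25.1 FPKM in BACH1-KO and to 37.2, 37.5 and 38.4 FPKM in WT libraries. The share of Jak1 was 48.1% ± 2.75 in BACH1-KO and 48.9% ± 1.96 in WT, and Jak2 9.37% ± 1.25 in BACH1-KO and 9.30% ± 0.53 in WT. The share of Tyk2 was 29.9% ± 1.95 in BACH1-KO and 18.8% ± 1.72 in WT, and that of Jak3, the kinase of lymphocyte cytokine receptors, 12.6% ± 2.08 in BACH1-KO and 23.0% ± 0.28 in WT (SD, n = 3 each).

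**Figure D3:**
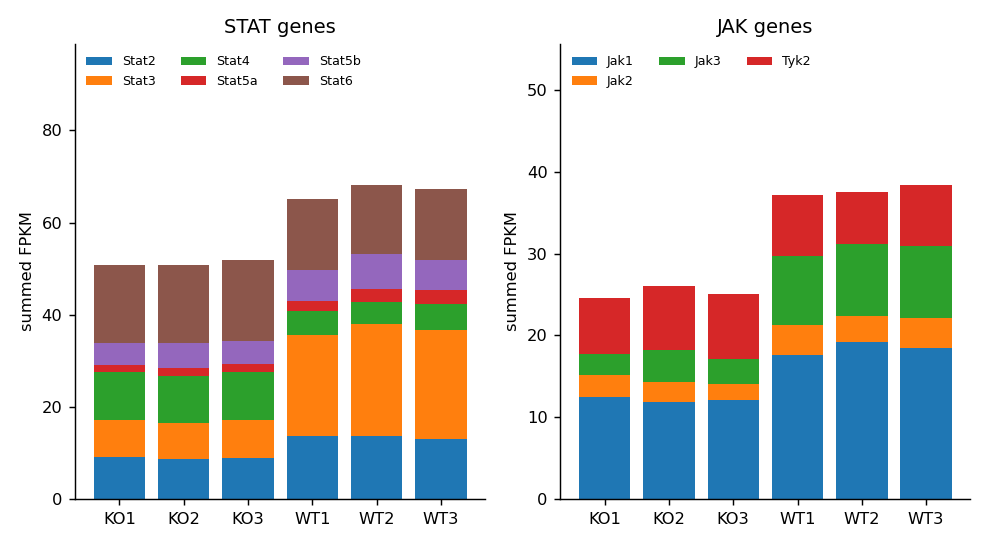
Stacked bars of FPKM per library for 6 STAT genes (left) and the 4 JAK genes (right), BACH1-KO libraries before WT libraries, from 0. The Stat3 segment is 15.2% to 16.2% of the STAT sum in BACH1-KO, against 33.6% to 35.6% in WT, while the Jak1 segment averages 48.1% of the JAK sum in BACH1-KO and 48.9% in WT.

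Of the other JAK and STAT genes, all 6 were tested: 2 rose, 3 fell and 1 did not pass, with a median log2 fold change of -0.17. Here and for the lists and neighbourhoods below, the shares over all tested genes were 37.3% that rose and 39.7% that fell. Jak3 was at 2.67, 3.88 and 3.03 FPKM in BACH1-KO and at 8.45, 8.74 and 8.80 FPKM in WT libraries (log2 fold change -1.21, limma adjusted p = 1.17e-05), a fall close in size to that of Lifr. Stat2, a STAT of the type I interferon response, averaged 8.88 ± 0.22 FPKM in BACH1-KO and 13.5 ± 0.33 FPKM in WT, and Stat5a 1.67 ± 0.18 FPKM in BACH1-KO and 2.73 ± 0.42 FPKM in WT. Stat4, known from interleukin-12 signalling, rose to 10.3 ± 0.16 FPKM in BACH1-KO, against 5.21 ± 0.45 FPKM in WT (log2 fold change 0.87, limma adjusted p = 5.95e-06). Stat6, known from interleukin-4 signalling, averaged 17.2 ± 0.36 FPKM in BACH1-KO and 15.2 ± 0.19 FPKM in WT and also rose (limma adjusted p = 0.00547).

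Of the 15 listed ligands and further receptor subunits of the gp130 family, 14 were analysed and 7 were high enough to test: 4 rose and 3 fell, with a median log2 fold change of 0.19. Lif itself was at 2.73, 2.69 and 2.67 FPKM in BACH1-KO and at 0.690, 0.998 and 1.40 FPKM in WT libraries (log2 fold change 0.88, limma adjusted p = 2.69e-04), so the transcript of the ligand was higher in every BACH1-KO library. Ebi3, a subunit of interleukin-27, averaged 2.45 ± 0.11 FPKM in BACH1-KO and 0.716 ± 0.29 FPKM in WT. It passed the filter only through BACH1-KO, so its call could only be higher. Cntfr, the binding subunit for ciliary neurotrophic factor, averaged 8.68 ± 0.33 FPKM in BACH1-KO and 6.75 ± 0.23 FPKM in WT, and Il11ra1, that for interleukin-11, 7.53 ± 0.19 FPKM in BACH1-KO and 6.46 ± 0.29 FPKM in WT; the call of Il11ra1 was lost after quantile normalization. Il27ra fell, with 1.08 ± 0.15 FPKM in BACH1-KO and 2.35 ± 0.40 FPKM in WT. Ctf1, the cardiotrophin-1 gene, was called lower by a narrow margin (log2 fold change -0.25, limma adjusted p = 0.0453). Ctf1 was not called without any 1 of the WT libraries or without BACH1-KO library 2 or 3 (adjusted p = 0.0591 to 0.146), nor with median-of-ratios scaling or no filter on low values.

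Downstream of SHP2, the route to RAS and ERK had 16 tested genes, of which 4 rose, 6 fell and 6 were without a call. This is a smaller share of calls than the 77% over all tested genes, of which 37.3% rose and 39.7% fell. The median log2 fold change of the list was 0.01. Grb2, the adaptor that links phosphorylated receptors and SHP2 to the RAS activator SOS, fell to 32.9 ± 0.59 FPKM in BACH1-KO, against 61.3 ± 0.66 FPKM in WT (log2 fold change -0.88, limma adjusted p = 1.55e-07). Frs2, an adaptor of FGF receptors, averaged 5.20 ± 0.16 FPKM in BACH1-KO and 8.64 ± 0.50 FPKM in WT, and Map2k1, which encodes MEK1, 67.9 ± 1.01 FPKM in BACH1-KO and 99.1 ± 3.46 FPKM in WT, and both fell. Shc1, Sos1 and Nras were the others that fell. Araf, a RAF kinase gene, rose to 43.4 ± 2.56 FPKM in BACH1-KO, against 32.2 ± 0.43 FPKM in WT, and Hras and Map2k2 were among the others that rose. Gab1, the docking adaptor that SHP2 binds, averaged 74.2 ± 1.77 FPKM in BACH1-KO and 70.4 ± 2.08 FPKM in WT and did not pass (limma adjusted p = 0.0878), but was called higher after median-of-ratios scaling, after quantile normalization and without WT library 1.

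In the PI3K and AKT route, another branch from gp130, 3 of 11 tested genes rose, 6 fell and 2 were not called, with a median log2 fold change of -0.16. Over all tested genes 77% were called. The catalytic subunit genes Pik3ca, Pik3cb and Pik3cd fell: Pik3cb, for example, averaged 8.09 ± 0.20 FPKM in BACH1-KO and 11.7 ± 0.50 FPKM in WT. Pik3r2 and Pik3r3, regulatory subunit genes, were among those that rose: Pik3r2 averaged 12.7 ± 0.45 FPKM in BACH1-KO and 8.45 ± 1.61 FPKM in WT, and Pik3r3 2.83 ± 0.08 FPKM in BACH1-KO and 1.88 ± 0.02 FPKM in WT. Pdpk1, Akt1 and Akt2 were the other genes that fell.

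Of the 16 inhibitors of JAK and STAT signalling, all tested, 2 rose, 6 fell and 8 did not pass, with a median log2 fold change of -0.15. The share called was smaller than the 77% over all tested genes. Socs3, the inhibitor that binds gp130 and is itself induced by STAT3, was at 2.98, 2.75 and 2.68 FPKM in BACH1-KO and at 62.3, 75.1 and 79.5 FPKM in WT libraries (log2 fold change -4.26, limma adjusted p = 1.46e-08). Socs4 averaged 7.57 ± 0.67 FPKM in BACH1-KO and 13.2 ± 0.70 FPKM in WT, Cish, a STAT5 target, 2.03 ± 0.26 FPKM in BACH1-KO and 3.62 ± 0.33 FPKM in WT, and Pias3, an inhibitor of STAT3, 7.71 ± 0.58 FPKM in BACH1-KO and 11.9 ± 0.64 FPKM in WT; all 3 fell. Socs2 and Socs6 also fell, and Socs5 and Pias2 rose.

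Of the 14 listed targets of STAT3 in embryonic stem cells 13 were tested: 10 fell, 2 rose and 1 did not pass, with a median log2 fold change of -1.25, beside -0.01 over all tested genes. The list was chosen with earlier results of these data known, so it is not independent evidence of a direction. Klf4, a naive-state transcription factor, was at 7.73, 7.76 and 6.69 FPKM in BACH1-KO and at 39.4, 43.1 and 42.6 FPKM in WT libraries (log2 fold change -2.35, limma adjusted p = 4.49e-08). Tfcp2l1, a STAT3 target that sustains self-renewal, averaged 8.01 ± 0.27 FPKM in BACH1-KO and 20.5 ± 0.24 FPKM in WT, and Ier3, an early response gene, 17.3 ± 1.95 FPKM in BACH1-KO and 83.8 ± 2.65 FPKM in WT. Socs3, Klf5, Gbx2, Pim3, Junb, Bcl3 and Myc fell as well. The genes that rose were Mcl1, a survival gene, at 270.1 ± 3.52 FPKM in BACH1-KO and 213 ± 5.85 FPKM in WT, and Sall4, at 14.6 ± 1.09 FPKM in BACH1-KO and 11.0 ± 1.95 FPKM in WT, whose call was lost without the first BACH1-KO library (adjusted p = 0.0505). Pim1, a kinase gene, averaged 48.2 ± 3.28 FPKM in BACH1-KO and 44.0 ± 3.31 FPKM in WT and did not pass (limma adjusted p = 0.103), but was called higher after quantile normalization and without WT library 3 or BACH1-KO library 1.

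**Figure D4:**
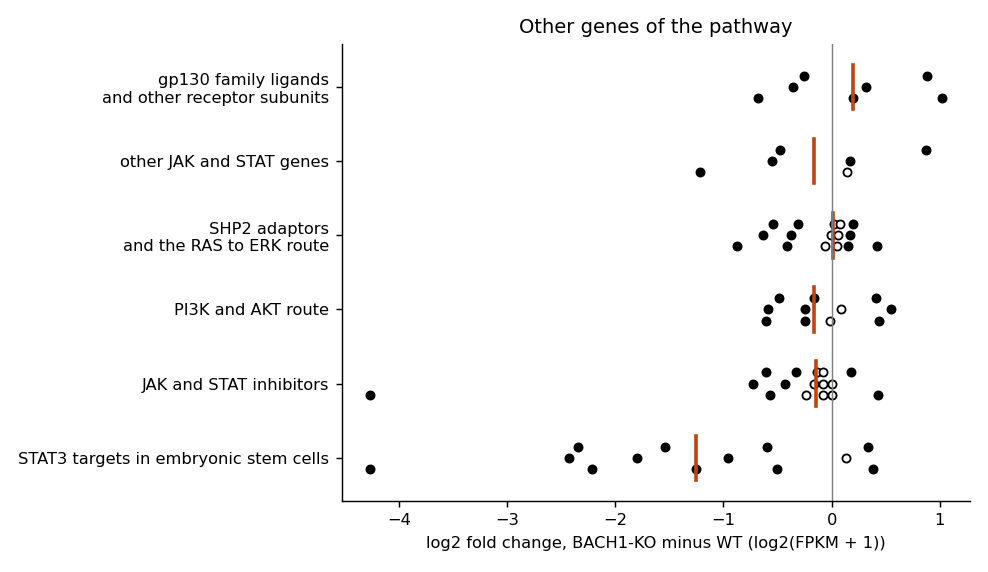
Log2 fold change on the log2(FPKM + 1) scale (BACH1-KO minus WT) of each tested gene of the 6 other lists of the pathway, filled where the limma adjusted p was under 0.05 and open where it was not, with an orange bar at the list median; Socs3 is on 2 lists. The median is -1.25 for the STAT3 targets and between -0.17 and 0.19 for the other 5 lists.

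Stat5b, Stat5a and Stat3 lie side by side on chromosome 11, and all 3 fell. The genes Stat3 and Stat5a point towards each other and overlap at their ends by 72 bases, while 8626 bases separate Stat5b from Stat5a; the kit named in the labels was not stated to keep strand, so reads from the overlap cannot be assigned. The log2 fold changes were -0.39 for Stat5b, -0.48 for Stat5a and -1.43 for Stat3. Within 500 kb of the pair of members 38 other genes were tested, of which 9 rose, 20 fell and 9 did not pass, with a median log2 fold change of -0.24, beside -0.13 over the 1008 tested genes of chromosome 11. Acly, which encodes ATP citrate lyase, fell to 85.5 FPKM in BACH1-KO, against 178 FPKM in WT (log2 fold change -1.05), and Mlx, a partner of glucose-responsive factors, was at 30.0 FPKM in BACH1-KO and 53.5 FPKM in WT (log2 fold change -0.81). Hsd17b1, an estradiol-forming enzyme gene, averaged 4.52 FPKM in BACH1-KO and 0.439 FPKM in WT. It passed the filter only through BACH1-KO, so its call could only be higher. None of the 38 had a log2 fold change as low as that of Stat3.

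**Figure D5:**
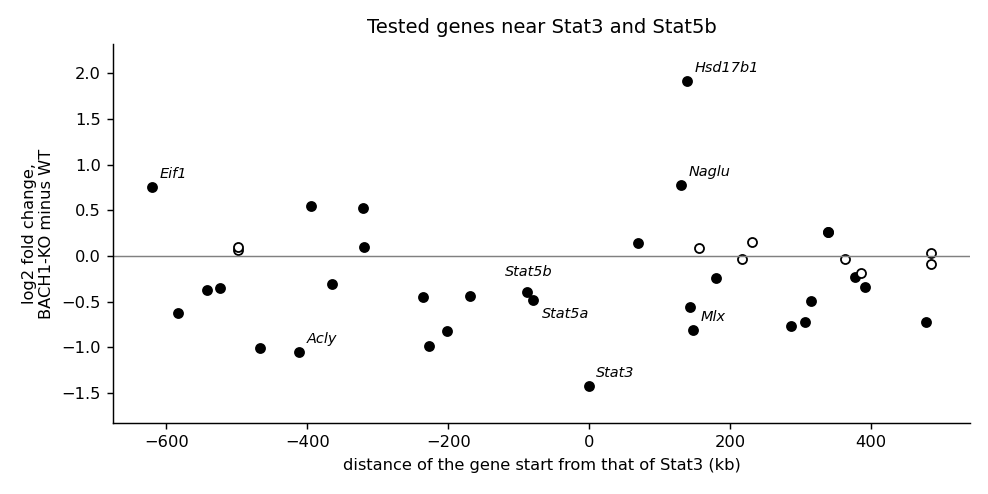
Log2 fold change on the log2(FPKM + 1) scale (BACH1-KO minus WT) of the tested genes within 500 kb of Stat3 or Stat5b, against the distance of the gene start from that of Stat3 in kb; filled points had a limma adjusted p under 0.05. Stat3 at -1.43 is the lowest point, and its neighbours Stat5a and Stat5b lie at -0.48 and -0.39.

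Lifr and Osmr are also neighbours, 215644 bases apart on chromosome 15. Of the other genes within 500 kb 3 were tested. Rictor, which encodes a subunit of the mTORC2 kinase complex, fell to 3.73 FPKM in BACH1-KO, against 9.54 FPKM in WT (log2 fold change -1.15, limma adjusted p = 1.90e-06). Dab2, an endocytic adaptor, averaged 1.02 FPKM in BACH1-KO and 1.62 FPKM in WT (log2 fold change -0.37, adjusted p = 0.00803). C9, a complement gene of the liver, averaged 4.55 FPKM in BACH1-KO and was listed at 0 in all WT libraries. It passed the filter only through BACH1-KO, so its call could only be higher. The median log2 fold change of the 445 tested genes of chromosome 15 was -0.07.

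The genes whose log2(FPKM + 1) profile over the 6 libraries, centred on its mean, was nearest to that of Lifr among 11611 compared included Lss and Ankrd35, with root mean square differences of 0.05 and 0.06. Lss, the lanosterol synthase gene, averaged 16.0 ± 0.68 FPKM in BACH1-KO and 40.2 ± 1.81 FPKM in WT. Ankrd35 averaged 2.31 ± 0.11 FPKM in BACH1-KO and 7.13 ± 0.48 FPKM in WT. Nearest to Stat3 were Rdh11, Slc25a30 and Thoc2, with differences of 0.04, 0.05 and 0.05. Rdh11, a retinol dehydrogenase gene, averaged 25.0 ± 0.75 FPKM in BACH1-KO and 68.0 ± 2.59 FPKM in WT. Slc25a30, a mitochondrial carrier gene, averaged 7.96 ± 0.46 FPKM in BACH1-KO and 24.4 ± 1.79 FPKM in WT, and Thoc2, an mRNA export gene, 6.30 ± 0.07 FPKM in BACH1-KO and 17.8 ± 0.58 FPKM in WT. All these genes were picked for closeness of profile, so their lower level in BACH1-KO follows from the choice and shows no link to Lifr or Stat3.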

How the data were processed

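RNA sequencing libraries from 3 BACH1-KO and 3 WT samples were analysed from 1 table of FPKM per gene symbol, which the authors deposited; the submitters' processing notes name Cufflinks and mm10. No source used here gives the aligner, annotation, versions or read depth, so no count model, count-based interval or detection floor was used. The confidence intervals given are those of the limma fit. Table columns are named by genotype, and which titled sample each holds is unknown, so no replicate or batch block was fitted. All 6 columns were used, and 23 rows with a number as symbol (0.0987% of summed FPKM) were left out.

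Log2(FPKM + 1) of genes averaging 1 FPKM or more was fitted with limma 3.58.1 in R 4.3.3 (lmFit, eBayes with a mean-variance trend, two-sided, Benjamini-Hochberg, threshold 0.05), after a test on simulated data. The simulation changed a far smaller share of genes than the 77% called here, so it does not cover adjusted p-values under such wide change. Log2 fold changes are BACH1-KO minus WT and understate changes of low genes. Ratios of members were compared with exact permutation tests. Coordinates are from GENCODE M21, and promoter sequences from RefSeq. The members and lists were chosen with earlier results of these data known. Named were all members, Bach1, up to 4 genes per list with the smallest adjusted p, members of counts up to 5, the 3 genes nearest in profile to Lifr and Stat3, and neighbours with a mean of at least 1 FPKM, of which a few are given; Gab1, Pim1 and the family sums were chosen after their values were seen. A few genes that this rule names are not reported here, though counts and medians of lists include them. Alternatives were a pseudocount of 0.1, no filter, a filter at 5 FPKM, median-of-ratios scaling, quantile normalization, a constant prior variance, limma treat at a fold change of 1.5 and leaving out each library.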

Additional observations from a re-analysis of the deposited data

How the results depend on the processing

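The 6 members that fell kept their direction and call under every alternative run except the test against a fold change of 1.5; Jak2 was below the filter at 5 FPKM and was not run there. Against 1.5-fold, 2 members, Lifr and Stat3, were called lower; the log2 fold changes of Il6st (-0.33), Jak1 (-0.56), Jak2 (-0.42), Stat5b (-0.39) and Bach1 (0.30) were no longer called. Over all alternatives the log2 fold change of Lifr ran from -1.52 to -1.29 and that of Stat3 from -1.52 to -1.40. Tyk2 turned to -0.0092 after quantile normalization; the cause was not tested. The 5 ratios kept their signs under the pseudocount of 0.1 and without any 1 library.

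Against 1.5-fold, 1325 genes were higher and 994 lower among all tested. Higher and lower counts were then 1 and 0 for the gp130 family ligands and receptors, 1 and 1 for the other JAK and STAT genes, 0 and 1 for the SHP2 and RAS route, 0 and 0 for PI3K and AKT, 0 and 1 for the inhibitors, and 0 and 8 for the STAT3 targets. With the filter at 5 FPKM, among fewer genes tested, 2942 genes in all were higher, and the counts were 2 higher and 0 lower for the gp130 family and 1 higher for the inhibitors. Median-of-ratios scaling left 1 gp130 family gene lower and called 6 genes of the SHP2 route higher, and quantile normalization called 7 of that route higher. With no filter on low values 6 genes of the SHP2 route and 6 of the gp130 family were higher. Without 1 library, the count of gp130 family genes called lower ran from 1 to 2. No paired analysis was possible because the table columns could not be matched to the sample titles, some of which share endings across the genotypes that may mark a date or batch; a fit within such batches was therefore not made. The read depth is unknown, so the precision of low genes such as Osmr could not be set.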
